A study of Mus musculus with 2 samples.

Results

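Glycolysis, gluconeogenesis and the pentose phosphate pathway were followed through 36 mouse genes, a fixed list taken by gene symbol from the 45706 genes of the count files. All 36 were found and all 36 were measured. Measured genes, 12026 in all, had 20 or more counts over both libraries and averaged 1 or more counts per 1000000 (CPM). The study sequenced RNA of sorted mouse intestinal stem cells in 2 libraries, 1 from fasting mice and 1 from mice given standard chow ad libitum. All mice carried Lgr5-EGFP-IRES-creERT2, an allele whose stem cell promoter (Lgr5) drives a green fluorescent protein (GFP) and an inducible Cre recombinase, and all were 4 months old. Only GFP high cells were taken. The labels do not say how long the mice fasted or how many of them each library pools.

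Glycolysis splits glucose to pyruvate in the cytosol, and crypt cells are known to reduce much of that pyruvate to lactate. Gluconeogenesis runs the same route backwards through its own enzymes at the steps that glycolysis cannot reverse, and in mammals it is known mainly from liver, kidney and small intestine, where fasting hormones raise it. The pentose phosphate pathway branches off at glucose 6-phosphate and supplies reducing power (NADPH) from its oxidative arm and ribose for nucleotides from its non-oxidative arm.

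Pck1 and G6pc, 2 of the 7 genes of gluconeogenesis, and the fructose-phosphorylating ketohexokinase gene Khk were higher in the fasted library, while the glycolytic and pentose phosphate enzymes stayed within 2-fold. Each ratio is fasted over fed after scaling, with an exact 95% interval that covers counting error only. A gene is called higher or lower where its ratio reached 2-fold in that direction and the interval left out 1. By this rule 3 of the 36 genes were higher (8.33%), Pck1, G6pc and Khk, against 2.51% of all measured genes. G6pc, at 0.57 CPM in the fed library, met the filter of 1 CPM only through the fasted library. Only Pfkfb3 was lower (2.78%), against 1.91% of all measured genes. Since each group holds 1 library, no test could be made and no difference can be set against replicates.

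Smaller differences leaned upwards. Of the 36 genes 27 had a positive log2 ratio, against 47.9% of all measured genes, and their median was 0.18, against -0.02. The interval lay wholly above a ratio of 1 for 19 genes (52.8%), against 16.7% of all measured genes, and wholly below it for 5 genes (13.9%), against 19.2%. Such intervals narrow with the number of reads, and the 36 genes had a median of 339.5 fasted and 358.5 fed counts, against 194 fasted and 277 fed over all measured genes. The 36 genes together held 23636 counts in the fasted library and 28564 in the fed library, which is 4708 CPM fasted and 4089 CPM fed.

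**Figure D1:**
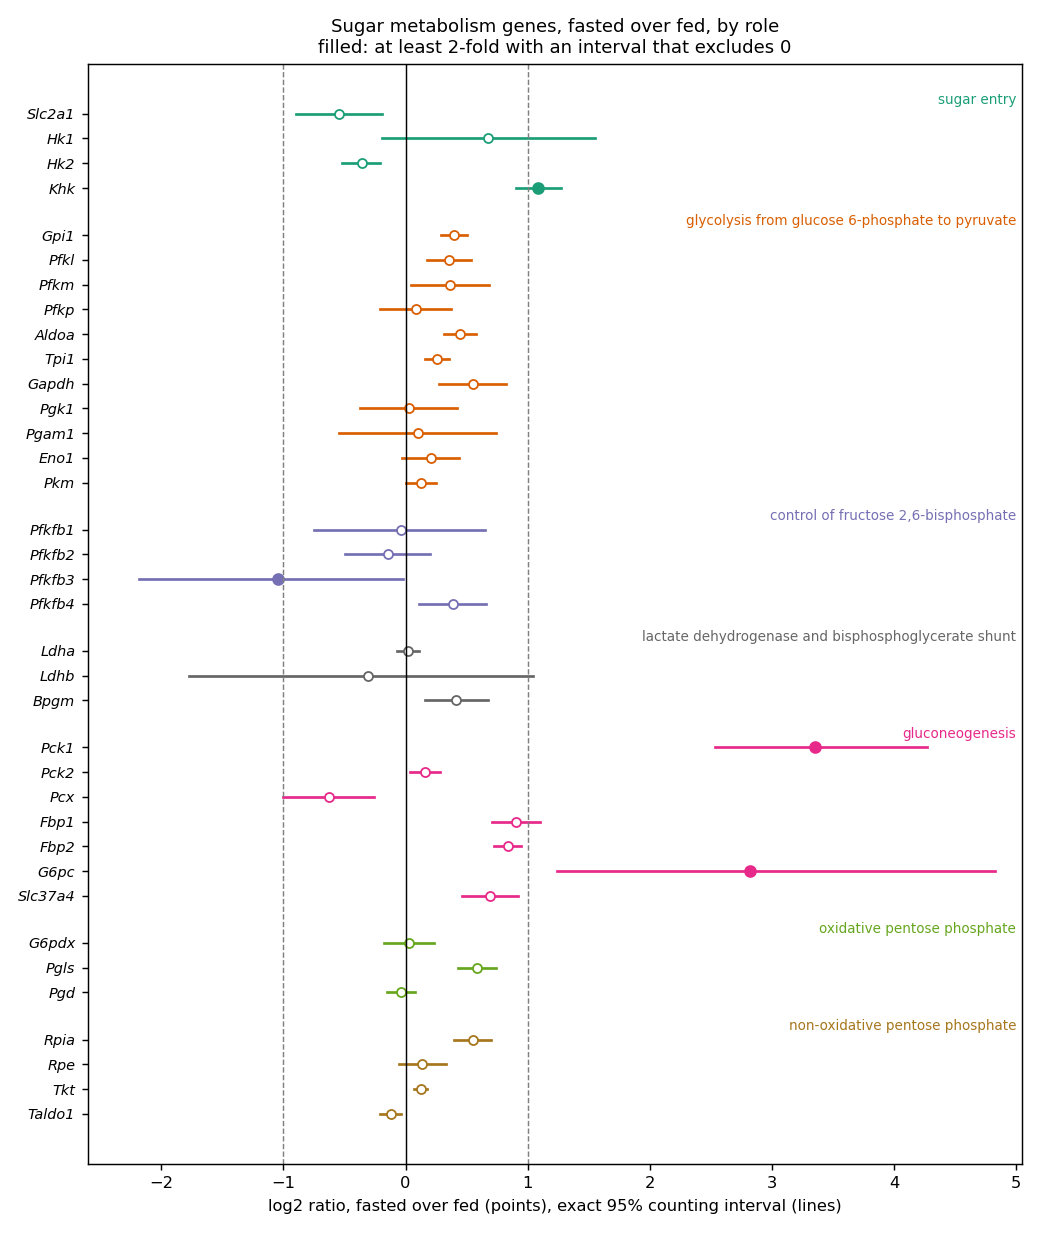
Log2 ratio of fasted over fed for each of the 36 genes, grouped by role. Points are ratios, lines are exact 95% counting intervals, dashed lines mark 2-fold and filled points are the 4 genes called higher or lower. Pck1 (3.35) and G6pc (2.82) lie far to the right, and the 11 glycolytic enzymes lie between 0.03 and 0.55 (Pgk1 and Pgam1 turn to -0.03 each after correction for exon length).

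The fasted library held 5020056 counts and the fed library 6985316. Markers checked the sort. Lgr5 had 1709 fasted and 3381 fed counts, and the 12 stem cell markers had 0 genes higher or lower and a median log2 ratio of -0.30. Of the 12, 11 were negative and 10 had an interval below 0, and they summed to 14449 CPM fasted and 21995 CPM fed. Of 18 markers of absorptive enterocytes, the main cell of the villus, 13 were higher in the fasted library and 0 lower, with a median log2 ratio of 1.17 and a summed level of 4348 CPM fasted against 2333 CPM fed. Of 8 goblet cell markers 3 were higher (Tff3, Fcgbp and Zg16), with 1244 CPM fasted and 637 CPM fed in sum. Of 8 Paneth cell markers 1 was higher (Mmp7), with 990 CPM fasted and 1145 CPM fed in sum. The other 7 Paneth markers had a negative log2 ratio, 4 of them with an interval below 0, and the median of the 8 was -0.31. The 8 cycling cell markers had 0 genes past 2-fold and a median of -0.62, and all 8 intervals lay below 0. They summed to 1647 CPM fasted and 2600 CPM fed. Enteroendocrine (30.5 fasted and 30.1 fed CPM in sum), tuft (9.96 fasted and 13.2 fed), immune (2.19 fasted and 5.30 fed), stromal and endothelial (1.39 fasted and 2.15 fed) and red blood cell markers (1.59 fasted and 0.43 fed) were rare. Of these, only the macrophage gene Cd68 passed the call, lower with 6 fasted and 25 fed counts. Col3a1, Kdr and Pdgfra had 0 counts in both libraries. In bulk RNA, fewer cells of a type and less RNA per cell cannot be told apart.

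Sugar entry comprised the glucose transporter gene Slc2a1 and the kinase genes Hk1, Hk2 and Khk, and its members had ratios on both sides of 1, with a median log2 ratio of 0.16. Slc2a1, the glucose carrier of most dividing cells, had 102 counts in the fasted library and 210 in the fed library, a log2 ratio of -0.54 (-0.90 to -0.20). Hk2, the inducible hexokinase of growing tissues, had 528 fasted and 957 fed counts, a log2 ratio of -0.36 (-0.52 to -0.21). Both intervals lay below 0, although neither gene passed 2-fold. The housekeeping hexokinase gene Hk1 was scarce, with 26 fasted and 23 fed counts, a log2 ratio of 0.67 (-0.19 to 1.55).

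Khk, whose product phosphorylates fructose and so bypasses hexokinase and phosphofructokinase, had 632 counts in the fasted library and 420 in the fed library. Its ratio was 2.12-fold, a log2 ratio of 1.09 (0.91 to 1.27), which fell to 0.95 after correction for exon length, just short of 2-fold. Per length, Khk stood at 226 transcripts per 1000000 (TPM) fasted and 114 TPM fed, while Hk2 stood at 56.8 TPM fasted and 77.9 TPM fed. Khk therefore held 79.4% of the counts per exon length of these 3 kinase genes in the fasted library and 58.9% in the fed library. In counts the share of Khk was 53.3% (exact binomial 95% interval 50.4 to 56.2) fasted and 30.0% (27.6 to 32.5) fed. TPM values serve here to compare genes within a library. Between the libraries they run 0.10 log2 units below the scaled ratio, so that Ldha, for one, is lower in fasted TPM at a log2 ratio of 0.02.

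Other genes of fructose and hexose handling stayed within 2-fold. Of 9 measured further sugar transporter genes among 17, 0 were higher or lower and the median log2 ratio was 0.22. The highest was Slc2a2, the low-affinity glucose and fructose carrier, with 63 fasted and 49 fed counts, a log2 ratio of 0.86 (0.30 to 1.43). The lowest was the inositol carrier gene Slc2a13, at -0.68 (-1.26 to -0.12). The fructose carrier gene Slc2a5 had 50 fasted and 40 fed counts, at 0.82 (0.19 to 1.46) on the log2 scale, and the apical sodium-glucose carrier gene Slc5a1 had 1229 fasted and 1612 fed counts, a log2 ratio of 0.11. Of 12 measured genes of fructose, galactose and mannose entry, 0 were higher or lower and the median was 0.21, from -0.21 for the phosphomannomutase gene Pmm2 to 0.56 for Pmm1. Slc5a1 is also among the 18 enterocyte markers.

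The 11 genes from glucose 6-phosphate to pyruvate all had a positive log2 ratio under each of the scalings tried, although Pgk1 and Pgam1 turned to -0.03 each after correction for exon length. None passed 2-fold, and 7 had an interval above 0. Their median was 0.26, which is 1.19-fold, and their summed counts gave 0.30 (0.25 to 0.35). Gpi1, the glucose phosphate isomerase, had 1468 fasted and 1574 fed counts, a log2 ratio of 0.40 (0.29 to 0.50). The phosphofructokinases, the committed step, had 0.35 (0.17 to 0.54) for the liver-type gene Pfkl, 0.36 (0.04 to 0.69) for the muscle-type gene Pfkm and 0.08 (-0.21 to 0.37) for the platelet-type gene Pfkp. The aldolase gene Aldoa had 924 fasted and 957 fed counts, at 0.45 (0.32 to 0.58) on the log2 scale, and the triose phosphate isomerase gene Tpi1 had 1649 fasted and 1949 fed counts, a log2 ratio of 0.26 (0.16 to 0.35).

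Below the triose phosphates the ratios ran from 0.55 to 0.03. Gapdh, the dehydrogenase, had the highest of the 11, with 232 counts fasted, 224 fed and a log2 ratio of 0.55 (0.28 to 0.82). The kinase gene Pgk1 had the lowest, with 94 fasted and 130 fed counts, a log2 ratio of 0.03 (-0.37 to 0.42). The mutase gene Pgam1 had 0.10 (-0.55 to 0.74), the enolase gene Eno1 0.21 (-0.03 to 0.44) and the pyruvate kinase gene Pkm, with 904 fasted and 1169 fed counts, 0.13 (0.00 to 0.25).

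Levels along the pathway were uneven, and 4 of the 5 genes from Gapdh to Pkm were counted at far lower levels than their neighbours. In TPM, Tpi1 stood at 385 fasted and 344 fed, Aldoa at 204 fasted and 160 fed, Gpi1 at 146 fasted and 119 fed, and Pkm at 116 fasted and 114 fed. Gapdh stood at 36.1 TPM fasted and 26.3 fed, Eno1 at 33.6 fasted and 31.1 fed, Pgk1 at 26.9 fasted and 28.2 fed, and Pgam1 at 12.3 in both. Of the 50-base stretches in the protein-coding transcripts of these 4 genes, 58.4% for Gapdh, 49.5% for Eno1, 68.0% for Pgk1 and 41.5% for Pgam1 also occur in a transcript of another gene, against 6.83% for Tpi1, 8.46% for Aldoa, 24.5% for Gpi1 and 23.7% for Pkm. Pfkl shared 0.053% and was also counted at a low level, 46.0 TPM fasted and 38.4 TPM fed. For Gapdh these were 222 other genes, 213 of them pseudogenes, and for Eno1 and Pgk1 they included Eno1b and Pgk1-rs7, which had 0 counts in both libraries. How the authors counted reads that fit several genes is not stated, and the part of shared sequence in these levels was not tested. Levels per length also rest on all annotated exon bases, 4133 for Gapdh and 2753 for Tpi1, and the part of this was not tested. Without these 4 genes the median of the other 7 was 0.35.

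**Figure D2:**
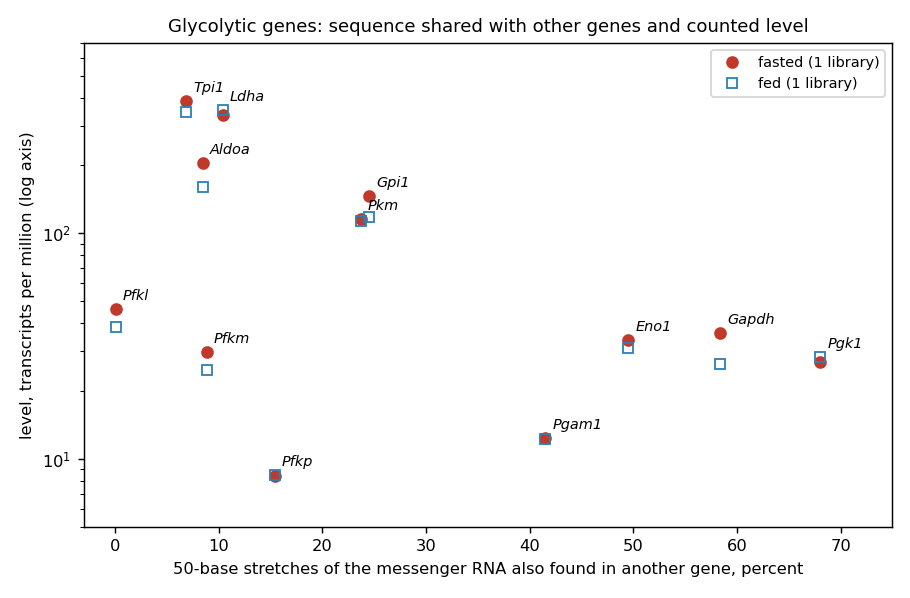
Level of the 11 glycolytic genes and Ldha in TPM, on a log axis, against the percentage of their 50-base transcript stretches that other genes share. Circles are the fasted library and open squares the fed library. The 4 genes above 40% (Pgam1, Eno1, Gapdh and Pgk1) all lie below 40 TPM, as do Pfkm (8.83% shared), Pfkp (15.4%) and fed Pfkl (0.053%).

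**Figure D3:**
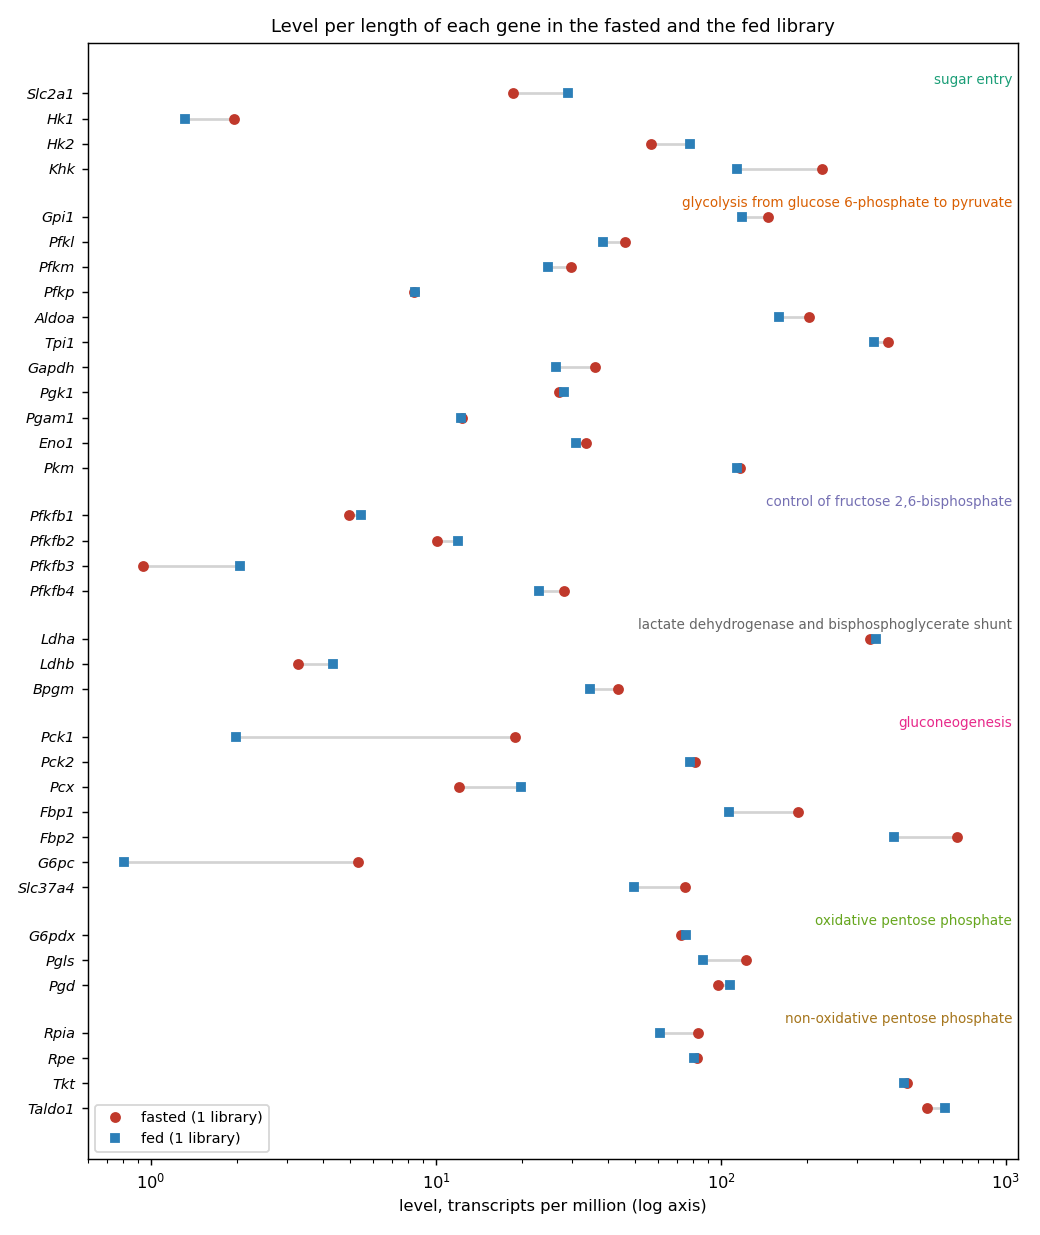
Level of each of the 36 genes in TPM on a log axis, by role, in the fasted library (circles) and the fed library (squares), joined by a grey line. Levels span from below 1 TPM for fed G6pc and fasted Pfkfb3 to 674 TPM for fasted Fbp2.

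The isoenzymes of phosphofructokinase had near-equal shares in the libraries. Per length, Pfkl held 54.6% fasted and 53.7% fed, Pfkm 35.4% fasted and 34.5% fed, and Pfkp 9.96% fasted and 11.8% fed. In counts the Pfkl share was 59.2% (55.7 to 62.6) fasted and 56.7% (53.5 to 59.9) fed, so the intervals overlapped. Of the exon bases of Pfkp, 5.58% lie opposite the peptidase gene Pitrm1, and the strand setting of the counting is not stated, so reads of the pair cannot be told apart there. Among 8 further glycolytic isoenzyme genes measured of 15, 0 were higher or lower and the median was 0.28. The muscle enolase gene Eno3 was highest at 0.57 (0.03 to 1.11) and the D-lactate dehydrogenase gene Ldhd lowest at -0.45 (-1.02 to 0.11). Pklr, the pyruvate kinase of liver and small intestine, had 297 fasted and 390 fed counts, a log2 ratio of 0.10 (-0.12 to 0.33).

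The 4 genes of the bifunctional PFKFB enzymes, which make and break fructose 2,6-bisphosphate, the strongest known activator of phosphofructokinase, had a median log2 ratio of -0.09. Pfkfb3, the form with the strongest kinase activity, had 11 counts in the fasted library and 32 in the fed library, a log2 ratio of -1.04 (-2.18 to -0.02). This call rested on few reads and on the edge of its interval: under upper-quartile scaling the log2 ratio was -1.02 with an interval that reached above 0 (0.0068), and after correction for exon length it was -0.96. The most abundant form was Pfkfb4, with 213 fasted and 230 fed counts, a log2 ratio of 0.39 (0.11 to 0.66). Its share of the step per length was 63.7% fasted and 54.1% fed, or 57.7% (52.5 to 62.8) of the counts fasted and 47.4% (42.9 to 52.0) fed. Pfkfb2 had 114 fasted and 178 fed counts, at -0.15 (-0.50 to 0.20) on the log2 scale, and the liver-type gene Pfkfb1 had 31 fasted and 45 fed counts, a log2 ratio of -0.04 (-0.75 to 0.65).

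At the end of the pathway, lactate dehydrogenase was almost entirely of the Ldha form in both libraries. Ldha, which favours the making of lactate, had 1719 counts fasted and 2390 fed, a log2 ratio of 0.02 (-0.07 to 0.11). Ldhb, which favours its use, had 8 fasted and 14 fed counts, so that Ldha held 99.5% (99.1 to 99.8) of the counts fasted and 99.4% (99.0 to 99.7) fed. Bpgm, which diverts a glycolytic intermediate to the red cell regulator 2,3-bisphosphoglycerate, had 242 fasted and 256 fed counts, a log2 ratio of 0.42 (0.16 to 0.68). Red blood cell markers were near 0 in both libraries, with 8 fasted and 3 fed counts over 8 genes. Of 5 measured genes of lactate and pyruvate transport among 7, 0 were higher or lower, from -0.72 for the carrier gene Slc16a7 (9 fasted and 21 fed counts) to 0.32 (0.26 to 0.38) for Bsg, the chaperone of the lactate carriers.

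Gluconeogenesis was the role with the highest median. Of its 7 genes 2 were higher and 0 lower, 6 had an interval above 0, and the median log2 ratio was 0.84, or 1.78-fold, against -0.02 for all measured genes. Pck1 encodes the cytosolic form of phosphoenolpyruvate (PEP) carboxykinase, the enzyme that commits carbon to gluconeogenesis. It had 101 counts in the fasted library and 14 in the fed library, a 10.2-fold ratio and a log2 ratio of 3.35 (2.54 to 4.27). G6pc, the glucose 6-phosphatase that releases free glucose, had 20 fasted and 4 fed counts, 7.06-fold and a log2 ratio of 2.82 (1.24 to 4.83). Both genes were scarce even so, at 18.9 TPM and 5.32 TPM in the fasted library, against 1.98 TPM and 0.81 TPM in the fed library. G6pc counted as measured only through its fasted level (3.98 CPM fasted, 0.57 CPM fed).

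The sequence upstream of the 3 higher genes is shown beside that of Ldha, an abundant gene whose ratio was near 0, so that the promoters of genes with a high ratio and of a gene with none can be compared. Each is the 250 bases before the RefSeq transcription start, 5′ to 3′ on the coding strand, from RefSeq on GRCm38.p6, with matched motifs in capitals. RefSeq windows matched all 36 genes, in 56 windows, since some genes have several starts. Ldha has another start whose window is not shown.

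Pck1, chr2:173152823-173153072, plus strand: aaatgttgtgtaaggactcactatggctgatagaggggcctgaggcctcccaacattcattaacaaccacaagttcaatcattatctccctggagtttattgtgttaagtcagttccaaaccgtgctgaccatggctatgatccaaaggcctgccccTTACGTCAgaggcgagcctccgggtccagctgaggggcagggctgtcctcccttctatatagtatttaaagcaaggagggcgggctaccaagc
G6pc, chr11:101367466-101367715, plus strand: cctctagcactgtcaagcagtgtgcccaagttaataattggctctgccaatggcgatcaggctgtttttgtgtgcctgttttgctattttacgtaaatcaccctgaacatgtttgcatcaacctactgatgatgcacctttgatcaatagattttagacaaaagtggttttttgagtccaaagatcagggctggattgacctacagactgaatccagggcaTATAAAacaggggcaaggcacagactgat
Khk, chr5:30921309-30921558, plus strand: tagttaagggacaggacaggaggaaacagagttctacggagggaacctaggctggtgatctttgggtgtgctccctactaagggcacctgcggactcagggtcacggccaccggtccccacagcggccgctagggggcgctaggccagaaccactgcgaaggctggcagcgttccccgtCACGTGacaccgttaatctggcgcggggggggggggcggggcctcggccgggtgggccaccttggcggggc
Ldha, chr7:46845554-46845803, plus strand: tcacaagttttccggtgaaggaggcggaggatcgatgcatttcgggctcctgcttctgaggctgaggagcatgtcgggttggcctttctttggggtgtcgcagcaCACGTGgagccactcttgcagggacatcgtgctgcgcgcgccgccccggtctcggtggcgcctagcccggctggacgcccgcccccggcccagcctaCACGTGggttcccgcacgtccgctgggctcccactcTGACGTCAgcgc

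The motifs searched, on both strands and over 300 bases (250 before and 50 after the start), were TATAAA (the TATA box), TTACGTCA (the cyclic AMP response element known from the rodent Pck1 promoter), TGACGTCA (the full form of that element), CACGTG (the E-box) and TGTTTAC (a forkhead site). No pair of these overlapped in the 4 sequences. The Pck1 window held TTACGTCA from 93 bases before the start, a motif found in 0.499% of all 32851 promoter windows and 0.866% of the 11892 windows of measured genes. The G6pc window held TATAAA from 29 bases before the start, as did 13.6% of all windows and 7.20% of those of measured genes anywhere within them. Khk held CACGTG from 71 bases before the start, and Ldha held it from 145 and 48 bases and TGACGTCA from 12 bases before the start. CACGTG lay in 7.15% of all windows and 10.1% of those of measured genes, and TGACGTCA in 1.79% and 3.06%. None of the 56 windows of the 36 genes held TGTTTAC, against 3.65% of all windows and 2.67% of those of measured genes. A match is a description of the sequence only. Only these exact strings were searched, so a window without a match may still hold another form of the same element.

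The gluconeogenesis windows ranged from 3 to 20 CG dinucleotides. Their median was 6 per 300 bases over 10 windows, against 21 over the 19 glycolysis windows, 20 over the windows of measured genes and 7 over all windows. Pck1 had 6 and G6pc 4, while Khk had 23 and the Ldha window shown 30. Windows of the same gene can overlap, so the windows are not independent of each other.

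The mitochondrial isoenzyme gene Pck2 carried most of the PEP carboxykinase messages and differed little. It had 986 fasted and 1249 fed counts, a log2 ratio of 0.16 (0.03 to 0.28). Pck1 made up 9.29% (7.63 to 11.2) of the counts of the pair in the fasted library and 1.11% (0.61 to 1.85) in the fed library. Per length its share was 18.9% fasted and 2.49% fed. Pcx, the mitochondrial pyruvate carboxylase that feeds the pathway, had 89 fasted and 194 fed counts, a log2 ratio of -0.63 (-1.01 to -0.26). It was the 1 gene of the 7 with a negative ratio, and its interval lay below 0.

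Of the later steps, those before the phosphatase G6pc differed by less than 2-fold. Fbp1, the liver-type fructose bisphosphatase, had 495 counts fasted and 373 fed, 1.87-fold and a log2 ratio of 0.91 (0.71 to 1.10). Fbp2, the form first known from muscle, had 1540 fasted and 1219 fed counts, 1.78-fold and a log2 ratio of 0.84 (0.73 to 0.94). Slc37a4, which carries glucose 6-phosphate to the phosphatase in the endoplasmic reticulum, had 333 fasted and 291 fed counts, 1.62-fold and 0.69 (0.46 to 0.92). All 3 intervals lay above 0. After correction for exon length the log2 ratios were 0.79 for Fbp1, 0.69 for Fbp2 and 0.62 for Slc37a4. The corrected ratio of Fbp2 lay below its interval.

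Per length, Fbp2 was the most abundant gene of gluconeogenesis in both libraries, although Pck2 had more counts in the fed library (1249 against 1219). Fbp2 stood at 674 TPM fasted and 403 TPM fed, against 187 TPM fasted and 107 TPM fed for Fbp1. It held 75.7% (73.8 to 77.5) of the counts of the pair fasted and 76.6% (74.4 to 78.6) fed. The 2 genes are neighbours on chromosome 13, but none of the 50-base stretches of either occurs in a transcript of another gene (0% for both). Set against the opposing enzymes in the same library, Fbp1 and Fbp2 together stood at 10.2 times the phosphofructokinase genes per length in the fasted library and 7.12 times in the fed library. G6pc stood at 9.05% of the hexokinase genes Hk1 and Hk2 fasted and 1.02% fed, and Pck1 at 16.3% of Pkm fasted and 1.75% fed. With Pck2 added to Pck1 the values were 86.2% of Pkm fasted and 70.2% fed, and Pcx stood at 10.4% of Pkm fasted and 17.5% fed.

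The same library held more RNA of enterocyte markers, of which 13 of 18 were higher, and none of the 18 was at 0 in either library. Their median log2 ratio of 1.17 lay above the 0.84 of the gluconeogenesis genes. They ran from -0.01 for Vil1, a microvillus protein gene, to 4.78 (4.58 to 4.99) for Fabp1, a fatty acid binding protein gene. Pck1 at 3.35 and G6pc at 2.82 lay below Fabp1 and above all the other markers of this list. The peptide carrier gene Slc15a1, at 2.50 (1.60 to 3.50), and the apolipoprotein gene Apoa1, at 2.33 (2.17 to 2.49), lay near G6pc. Pck1, G6pc, Fbp1 and Khk are known to be active in absorptive cells of the villus. The part of enterocyte RNA in these ratios, that of Khk included, was not tested.

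**Figure D4:**
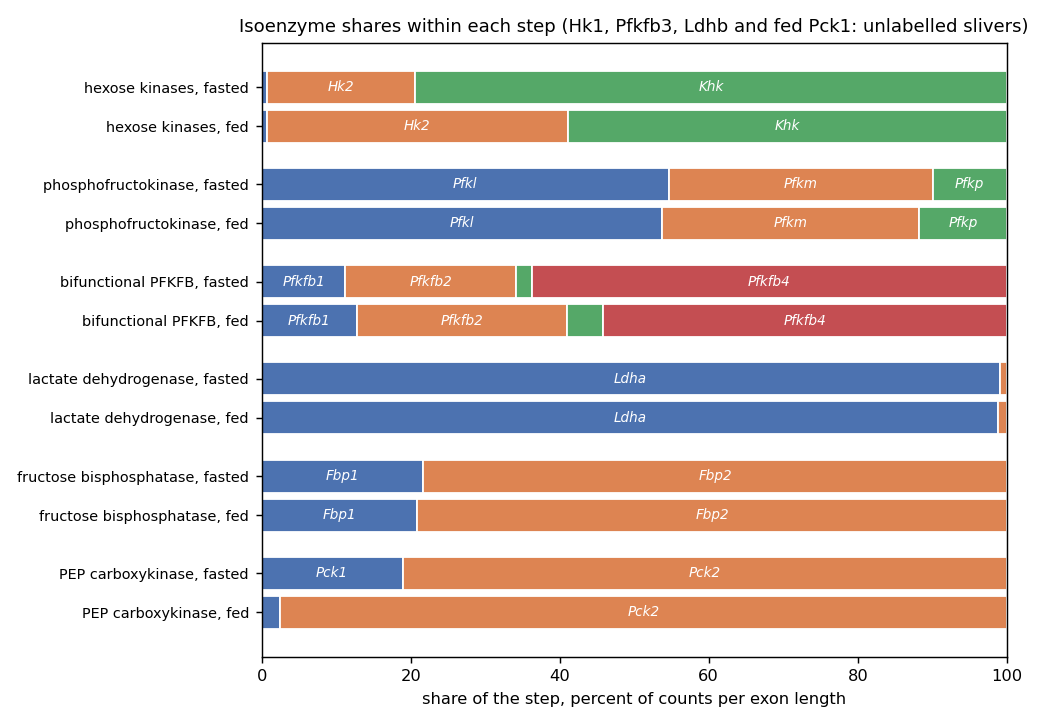
Share of each gene within its step, in percent of counts per exon length, with the fasted library above the fed library. The step drawn as hexose kinases holds Hk1, Hk2 and Khk only, without others such as Galk1 and Hkdc1. Of these drawn genes Khk held 79.4% fasted against 58.9% fed. Pck1 held 18.9% of PEP carboxykinase fasted against 2.49% fed, while phosphofructokinase and fructose bisphosphatase had near-equal shares in both.

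Among 10 measured genes of further phosphatase and helper steps, 1 was higher and 0 lower (median log2 ratio 0.20). It was Gpt, the alanine aminotransferase that turns alanine into pyruvate, with 117 fasted and 76 fed counts, a log2 ratio of 1.12 (0.69 to 1.56). The widely expressed phosphatase gene G6pc3 had 512 fasted and 678 fed counts, a log2 ratio of 0.09 (-0.08 to 0.26), and at 148 TPM in each library it stood far above G6pc. Of 10 measured glycogen genes 0 were higher or lower, the median was -0.12 and 7 were negative, from -0.29 (-0.50 to -0.08) for the phosphorylase kinase gene Phkb to 0.36 (0.18 to 0.54) for the lysosomal glucosidase gene Gaa.

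The pentose phosphate pathway held the most counts of the 36 genes, 42.5% fasted and 46.0% fed, and 0 of its 7 genes passed 2-fold. In the oxidative arm G6pdx, the NADPH-making glucose 6-phosphate dehydrogenase that sets the entry, had 346 counts fasted and 479 fed, a log2 ratio of 0.03 (-0.18 to 0.23). Pgd, the other NADPH-making dehydrogenase, had 981 fasted and 1421 fed counts, a log2 ratio of -0.04 (-0.16 to 0.08). Between them, the lactonase gene Pgls had 716 fasted and 673 fed counts, a log2 ratio of 0.59 (0.43 to 0.74), an interval above 0. G6pdx shares 13.6% of its exon bases with Ikbkg on the other strand, and 20.6% of the exon bases of Pgls lie in Fam129c, which had 10 fasted and 16 fed counts.

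In the non-oxidative arm the abundant genes differed little. Tkt, the transketolase, had 5129 counts fasted and 6645 fed and a log2 ratio of 0.12 (0.07 to 0.18). Taldo1, the transaldolase, had 1781 fasted and 2734 fed counts, a log2 ratio of -0.12 (-0.21 to -0.03). At 448 and 527 TPM in the fasted library, against 439 and 612 TPM in the fed library, they were the most abundant genes of the pathway. The ribose 5-phosphate isomerase gene Rpia, which makes the sugar of nucleotides, had 695 fasted and 671 fed counts and the highest ratio of the arm, 0.55 (0.39 to 0.70). The epimerase gene Rpe had 400 fasted and 514 fed counts, a log2 ratio of 0.14 (-0.06 to 0.33), with 17.9% of its exon bases shared with Kansl1l on the other strand. Of 8 further pentose phosphate genes measured of 11, 0 were higher or lower and the median was 0.13, from -0.17 for Tigar, a phosphatase that diverts sugar into the pathway, to 0.54 (0.25 to 0.84) for H6pd, the dehydrogenase of the endoplasmic reticulum.

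Gluconeogenesis took a larger share of the messages in the fasted library. Its 7 genes held 15.1% (14.6 to 15.5) of the counts of the 36 genes in the fasted library and 11.7% (11.3 to 12.1) in the fed library, a share that does not depend on scaling. Per exon length it was 24.7% fasted and 17.9% fed, and without Fbp2 it was 9.16% of the counts fasted and 7.77% fed. Glycolysis from glucose 6-phosphate held 27.1% (26.5 to 27.6) fasted and 25.7% (25.1 to 26.2) fed, and the non-oxidative pentose phosphate arm 33.9% (33.3 to 34.5) fasted and 37.0% (36.4 to 37.5) fed.

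**Figure D5:**
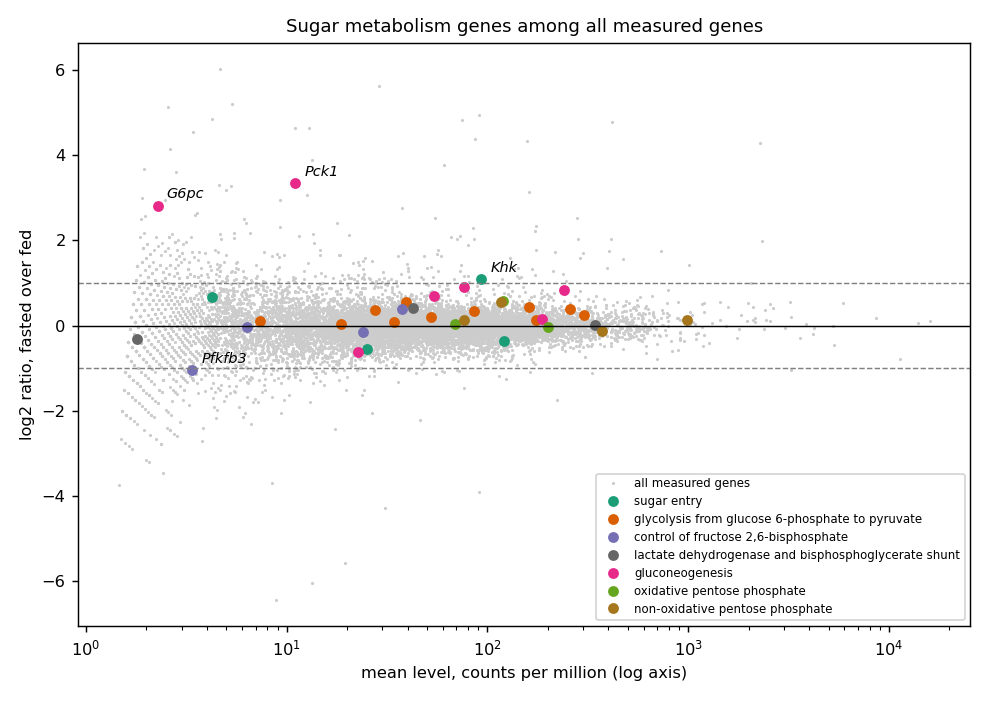
Log2 ratio of fasted over fed against the mean level in CPM (log axis) for all 12026 measured genes (grey, those with a count in both libraries) and the 36 genes by role. Dashed lines mark 2-fold. Pck1, G6pc and Khk lie above the upper line and Pfkfb3 just below the lower one. Pck1, G6pc and Pfkfb3 lie at low CPM, where the grey points spread widely.

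Regulators of these pathways were measured for 26 of 27 genes, of which 2 were higher and 1 lower (median log2 ratio 0.04). The lower gene was Arrdc4, an arrestin-like target of the glucose sensor ChREBP, with 102 fasted and 360 fed counts, a log2 ratio of -1.32 (-1.65 to -1.001). Mlxipl, which encodes ChREBP, had 1139 fasted and 2257 fed counts, at -0.49 (-0.59 to -0.39) on the log2 scale, and the other known target Txnip had 3115 fasted and 3925 fed counts, a log2 ratio of 0.16 (0.10 to 0.23). Klf15, a fasting-induced factor of gluconeogenesis in liver, had 23 fasted and 13 fed counts, a log2 ratio of 1.32 (0.28 to 2.42), and Mycn, of the Myc family of transcription factors, had 34 fasted and 23 fed counts, a log2 ratio of 1.06 (0.26 to 1.89). Hif1a, the hypoxia factor that drives glycolysis, had 0.08 (-0.09 to 0.25), Myc had 0.12 (0.02 to 0.22) and Hnf4a, which acts on the Pck1 and G6pc promoters in liver, had -0.22 (-0.26 to -0.17). Of the 26 regulators 15 had a positive and 11 a negative log2 ratio. Among the negative ones were Creb1 at -0.38 (-0.54 to -0.23), Crtc2 at -0.22 (-0.48 to 0.03), Nr3c1 at -0.18 (-0.28 to -0.07) and Foxo1 at -0.01 (-0.24 to 0.23). The positive ones included Ppargc1a at 0.47 (0.12 to 0.81), Sik1 at 0.23 (-0.20 to 0.66), Cebpb at 0.19 (-0.16 to 0.54) and Foxo3 at 0.02 (-0.16 to 0.20). Of the regulators named here, only Arrdc4, Klf15 and Mycn passed 2-fold, and the others were named after their values were seen.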

How the data were processed

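RNA sequencing of sorted cells was analysed for 1 fasted and 1 fed library. The authors deposited raw read counts per Ensembl gene, and a normalised signal that equals each count divided by 1 factor per library (0.842 fasted, 1.19 fed; matching within 0.006 for 99.97% and 99.99% of genes). FastQC, STAR, HTSeq and DESeq, and the builds GRCm38 and mm10, are named per the submitters' processing notes. The annotation is not given in the sources used here, nor is the strand setting. Of 45706 IDs, 45143 matched a symbol of GENCODE M21, which gave exon lengths. Counts were divided by median-of-ratios factors. Intervals are Clopper-Pearson intervals of the fasted share of a gene's reads. Computed TPM and shares per length used all annotated exon bases of a gene, so the order of genes per length depends on the annotation. The procedure was run on simulated counts that vary by counting error only, so the run says nothing of the spread between replicates. Python 3.11.15, scipy 1.17.1 and edgeR 4.0.16 (TMM only) were used. Alternatives were other scalings, filters, thresholds, summed counts and a length correction (running median over 501 genes). Named are all 36 genes, and of each further list the genes past the threshold or else its highest and lowest. Marker lists are given by counts, medians and summed levels, and the markers named were chosen after their values were seen. Slc2a5, Slc5a1, Pklr and G6pc3 were added after their values were seen. The members, lists and motifs were chosen with earlier results of these data known.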

Additional observations from a re-analysis of the deposited data

How the results depend on the processing

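The counts of 3 higher and 1 lower genes among the 36 became 7 and 2 at 1.5-fold. The higher count was 2 at 3-fold, after length correction and at a minimum of 5 CPM, where G6pc drops out. The lower count was 0 at 3-fold, at a minimum of 5 CPM, under upper-quartile scaling and after length correction. Over all genes, 302 higher and 230 lower became 176 and 111 at 5 CPM, 614 and 607 at 1.5-fold, and 124 and 88 at 3-fold. The sugar entry median, 0.16, was -0.36 at 5 CPM, where Hk1 drops out. Over all measured genes the log2 ratio fell with exon length (Spearman correlation -0.245), so shorter genes tended to higher ratios in the fasted library. The gluconeogenesis median was 0.69 after length correction and 0.59 from summed counts. The difference in the gluconeogenesis share, 3.37 percentage points by counts, was 6.80 per exon length and 1.39 without Fbp2, both chosen after seeing the data. The PFKFB value turned positive from summed counts (0.10). Length correction turned 5 ratios near 0 in sign, those of Pgk1 and Pgam1 (-0.03 each), Ldha (-0.0015), G6pdx (-0.0036) and Pgd (0.02), and ended the calls of Khk and Pfkfb3. Scaling by TMM, total counts or the deposited factors changed no call of the 36 genes. Reads limit Pck1 (14 fed), G6pc (4 fed), Pfkfb3 (11 fasted), Ldhb (8 fasted), Hk1 (23 fed), Pfkfb1 (31 fasted) and Pgam1 (38 fasted), whose intervals span more than 1 log2 unit. No library could be left out. No paired analysis was possible because each group holds 1 library.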

Other observations

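Some neighbouring genes, named after their values were seen, add to the picture of the fasted library. Gpd1, which links glycolysis to glycerol phosphate, had 892 fasted and 845 fed counts, a log2 ratio of 0.58 (0.44 to 0.71). Ppara, the fatty acid sensor known to be active in fasting, had 186 fasted and 156 fed counts, a log2 ratio of 0.75 (0.44 to 1.07), and its coactivator gene Ppargc1a had 141 fasted and 144 fed counts, a log2 ratio of 0.47 (0.12 to 0.81). Srebf1, a lipogenic factor known to rise with feeding, had 539 fasted and 1021 fed counts, a log2 ratio of -0.42 (-0.58 to -0.27). None of these passed 2-fold.

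The mitochondrial pyruvate carrier is built of the products of Mpc1 and Mpc2. Mpc1 had 47 fasted and 95 fed counts, a log2 ratio of -0.52 (-1.05 to 0.0015), and Mpc2 had 471 fasted and 564 fed counts, a log2 ratio of 0.24 (0.06 to 0.42). The glucose-sensing factor gene Mlxip had 2622 fasted and 2516 fed counts, a log2 ratio of 0.56 (0.48 to 0.64), against -0.49 (-0.59 to -0.39) for its relative Mlxipl. These are values of 1 library each, with no replicate check.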
